A study of Caenorhabditis elegans with 2 samples.

Results

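MicroRNA genes were examined for binding of PHP-3, a Hox protein of the posterior group, in whole L4 larvae of the nematode Caenorhabditis elegans. The members were the 261 genes of 46926 in the annotation (Ensembl release 115) whose class was microRNA, and a gene was counted as having a summit where the highest point of a PHP-3 peak stood at most 2000 bp before or 200 bp behind the gene's annotated 5′ end. Of these genes, 47 had a summit, on 49 distinct summits, and 214 had none. The genes were taken by their annotated class and by no peak value, though with earlier results of these data known.

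The worms were of strain RW12213, in which CRISPR had placed a TY1, EGFP and 3xFLAG tag in the php-3 gene itself, on chromosome III. Larvae were synchronised by bleaching and starvation as L1 larvae and collected as L4 larvae with a labelled age of 48 hours. Chromatin of whole animals was fragmented by sonication, recovered with an antibody against GFP and sequenced (ChIP-seq), in 2 biological replicates that formed the only group. No other genotype, stage or treatment was compared, and in whole animals a peak in a few cells cannot be told apart from a weaker one in many.

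MicroRNAs are short RNAs that are cut from a hairpin in a longer primary transcript, first in the nucleus and then in the cytoplasm. Loaded into an Argonaute protein, a microRNA pairs with sites in messenger RNAs mainly through its seed, the bases from position 2 to position 8, and lowers the output of those messages. In this worm lin-4 and the let-7 family time the larval stages, and others act in muscle, gut, neurons or the embryo.

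Seeds group the members that the results turn on. The mature RNAs of 4 families are shown because genes of one family stood on both sides of the rule, or all stood inside it. Sequences were read from the RefSeq genome and annotation of assembly WBcel235, which has ce11 coordinates, and capitals mark the seed. For the let-7 family the 4 genes best known for larval timing are shown. Among these, let-7 and mir-241 had a summit in the window, and mir-48 and mir-84, with the same seed, had none.
let-7: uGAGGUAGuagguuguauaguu
mir-241: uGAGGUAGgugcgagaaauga
mir-48: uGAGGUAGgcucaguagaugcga
mir-84: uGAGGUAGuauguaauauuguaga
Both genes of the lin-4 family had a summit.
lin-4: uCCCUGAGaccucaaguguga
mir-237: uCCCUGAGaauucucgaacagcu
In the mir-51 family all but mir-52 had one. The mir-57 seed, given after the family, begins like theirs and is another seed.
mir-51: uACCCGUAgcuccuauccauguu
mir-53: cACCCGUAcauuuguuuccgugcu
mir-54: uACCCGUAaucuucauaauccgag
mir-55: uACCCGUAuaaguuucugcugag
mir-56: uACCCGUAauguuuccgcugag
mir-52: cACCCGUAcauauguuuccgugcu
mir-57: uACCCUGUagaucgagcugugugu
All 5 genes of the mir-64 family had a summit, although 4 of them shared it. The mature RNAs of 4 of the 5 are shown.
mir-64: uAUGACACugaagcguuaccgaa
mir-66: cAUGACACugauuagggauguga
mir-229: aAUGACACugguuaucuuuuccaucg
mir-63: uAUGACACugaagcgaguuggaaa

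The DNA around selected summits is shown as 101 bases on the plus strand with the summit in the middle. These windows were chosen because they belong to mir-57, a microRNA gene linked to the posterior Hox genes, to 2 strong summits that no coding gene shared (mir-60 and mir-83), to the lin-4 family, and to the strongest summit of a microRNA cluster (mir-54, mir-55 and mir-56). Capitals mark matches, on either strand, to a posterior Hox core (TTTATG or TTTACG), the core site of GATA factors (AGATAA or TGATAA) or a joint PBC-Hox site (TGATNNAT), and some matches overlap.
mir-57 stronger summit (chrII:7850741-7850841, plus strand): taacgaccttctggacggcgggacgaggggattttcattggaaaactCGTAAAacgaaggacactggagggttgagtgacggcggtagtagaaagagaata
mir-57 weaker summit (chrII:7851673-7851773, plus strand): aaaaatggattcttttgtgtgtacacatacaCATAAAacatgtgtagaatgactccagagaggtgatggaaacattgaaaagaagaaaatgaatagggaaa
mir-60 (chrII:6328821-6328921, plus strand): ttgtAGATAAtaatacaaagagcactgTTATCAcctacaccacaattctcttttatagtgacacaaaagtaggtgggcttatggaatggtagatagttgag
mir-83 (chrIV:7841321-7841421, plus strand): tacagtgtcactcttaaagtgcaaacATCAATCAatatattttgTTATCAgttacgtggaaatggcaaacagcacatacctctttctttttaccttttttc
lin-4 (chrII:5900883-5900983, plus strand): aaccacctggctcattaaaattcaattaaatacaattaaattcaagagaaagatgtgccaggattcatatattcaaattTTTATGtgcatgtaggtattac
mir-237 (chrX:8152684-8152784, plus strand): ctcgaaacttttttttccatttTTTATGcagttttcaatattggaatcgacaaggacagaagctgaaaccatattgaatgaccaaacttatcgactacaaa
mir-54 cluster (chrX:13145242-13145342, plus strand): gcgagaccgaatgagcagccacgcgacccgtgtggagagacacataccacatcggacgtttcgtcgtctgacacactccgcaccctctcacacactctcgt
The stronger mir-57 window held a posterior Hox core at its centre and the weaker one a match 16 bp from its centre. The mir-60 window held 2 GATA cores, the mir-83 window a GATA core 3 bp from the summit and a PBC-Hox site, and the lin-4 and mir-237 windows a posterior Hox core each, at 31 and 25 bp. The cluster window held none of these letters. Unshared summits at mir-2221 (225) and mir-51 (183), stronger than those of mir-60 and mir-83, were not among the windows chosen. The mir-2221 window held a GATA core, and the mir-51 window held no match to any of these motifs. The chosen windows thus do not stand for all 49.

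None of the 3 motifs had a higher share at microRNA summits than at summits in general. A posterior Hox core stood in 9 of 49 microRNA windows (18.4%, exact binomial 95% interval 8.76 to 32.0) and in 18.9% of all 3559 summit windows. The windows that held one belonged to mir-57 (both summits), mir-8186.2, mir-62, mir-237, lin-4, the pair mir-1819 and mir-2212, mir-34 and mir-70. A GATA core stood in 10 of 49 (20.4%, interval 10.2 to 34.3) and in 35.4% of all summits, so the interval for the microRNA windows ended below the share of all summits. The PBC-Hox site stood in 3 of 49 (6.12%) and in 9.16% of all. A match describes letters in a window and shows no bound site.

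A summit was found for a larger share of microRNA genes than of protein-coding genes. In the list made from both replicates, 47 of 261 microRNA genes (18.0%, exact binomial 95% interval 13.5 to 23.2) had a summit in the window. The same window held a summit at 10.9% of 19985 protein-coding genes and at 8.86% of all 46926 annotated genes. No test of this difference was made, and genes that share a summit are not independent. Other small RNA genes had higher shares, 47.2% of 634 tRNA genes, 34.7% of 346 snoRNA genes and 27.1% of 129 snRNA genes, and piRNA genes, which are short and dense, had 2.79% of 15363.

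The order of microRNA above coding genes was the same in each list and window examined. In the conservative list 40 microRNA genes had a summit (15.3%) and 10.8% of coding genes. In replicate 1's own list the count was 26 (9.96%, against 5.92% of coding genes), and in replicate 2's own list 30 (11.5%, against 6.62%). With the window cut to 1000 bp upstream, 30 genes had a summit (11.5%, against 7.94%), and with 500 bp, 25 did (9.58%, against 5.93%). In replicate 1's list the interval of the microRNA share, 6.61 to 14.3, stood just above the coding value. The interval of the 1000 bp window, 7.89 to 16.0, held it.

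**Figure D1:**
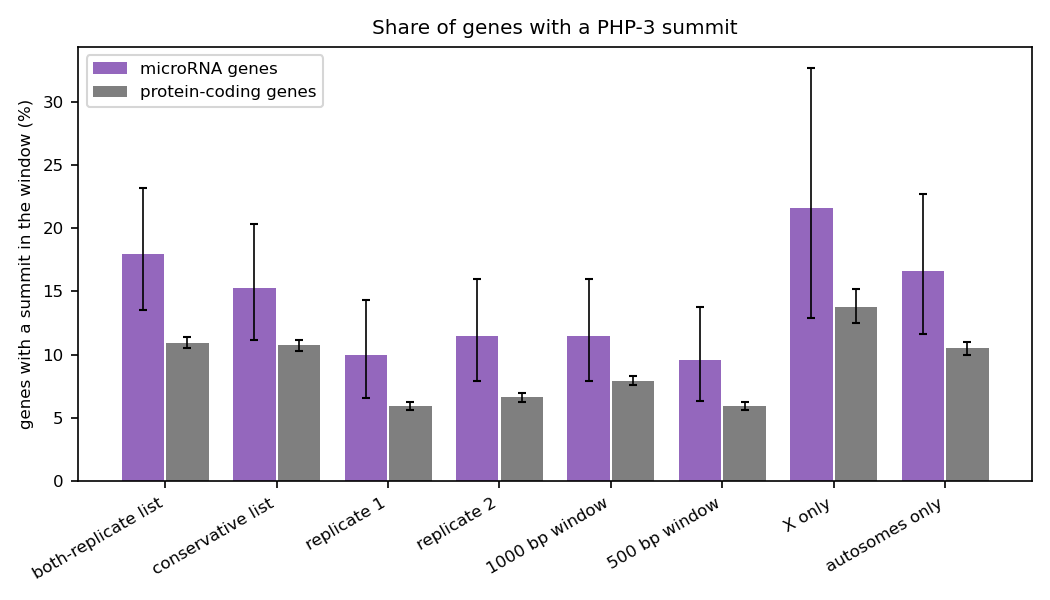
Bars show the percentage of microRNA genes and of protein-coding genes with a PHP-3 summit in the window, in 4 peak lists, for 2 shorter windows and by chromosome type, with exact binomial 95% intervals that cover counting error only. The microRNA bar is the taller in each pair, at 18.0% against 10.9% in the list made from both replicates, and its interval is wide throughout.

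On the X chromosome 16 of 74 microRNA genes had a summit (21.6%, interval 12.9 to 32.7), and 13.8% of coding genes there did. On the autosomes 31 of 187 did (16.6%, interval 11.6 to 22.7), against 10.5% of coding genes. The intervals for X and the autosomes overlap widely. The X count was 6 in the 1000 bp window, 5 in replicate 1's own list and 12 in replicate 2's. Chromosome III held 8 of 27, the highest share of any chromosome at 29.6% (interval 13.8 to 50.2), and 5 of the 8 genes were mir-80 and the 4 neighbours mir-64, mir-65, mir-66 and mir-229.

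Genes that carry a number below 1000 had a summit more often, 30 of 132 (22.7%, interval 15.9 to 30.8), than genes with a number of 1000 or more, 14 of 122 (11.5%, interval 6.42 to 18.5). Hairpins inside a coding gene on its own strand had 18 of 74 (24.3%, interval 15.1 to 35.7), those outside coding genes 26 of 155 (16.8%), and those inside a coding gene on the opposite strand 3 of 32 (9.38%). These intervals overlap.

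Summits in microRNA windows were of middling strength. Their median signal value, a peak height in the authors' units, was 124 (quartiles 102 and 151, range 6.45 to 313), and over all 3559 summits the median was 120 (quartiles 94.9 and 169, highest 1140). By quartile of all summits, from lowest to highest signal, 9, 14, 18 and 8 of the 49 fell in each. The microRNA summits were thus spread over the whole list, and none reached the height of the strongest peaks of the genome.

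Each of the 49 summits had an overlapping peak in both replicates' longer ranked lists, as did 3493 of all 3559 summits. The median signal was 59.9 in replicate 1 and 66.9 in replicate 2, and replicate 2 was the higher at 28 of 49 summits. Over all summits with both values the medians were 59.1 and 66.8, and replicate 2 was the higher at 2351 of 3493. The ratio of replicate 2 to replicate 1 ran from 0.372 at mir-253 to 2.19 at mir-34, and 13 of 49 differed by more than 1.5 times. A peak of both replicates' own lists covered 19 of 49 (38.8%, against 35.3% of all summits). Another 6 had one in replicate 1's list only (12.2%, against 10.8%) and 10 in replicate 2's only (20.4%, against 17.9%). The other 14 were in neither (28.6%, against 36.0%). The 19 include the mir-2215 summit of 6.45, which counts only through the peaks of its neighbour and had none at 50% overlap. The signal values of each replicate come from the longer ranked lists.

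**Figure D2:**
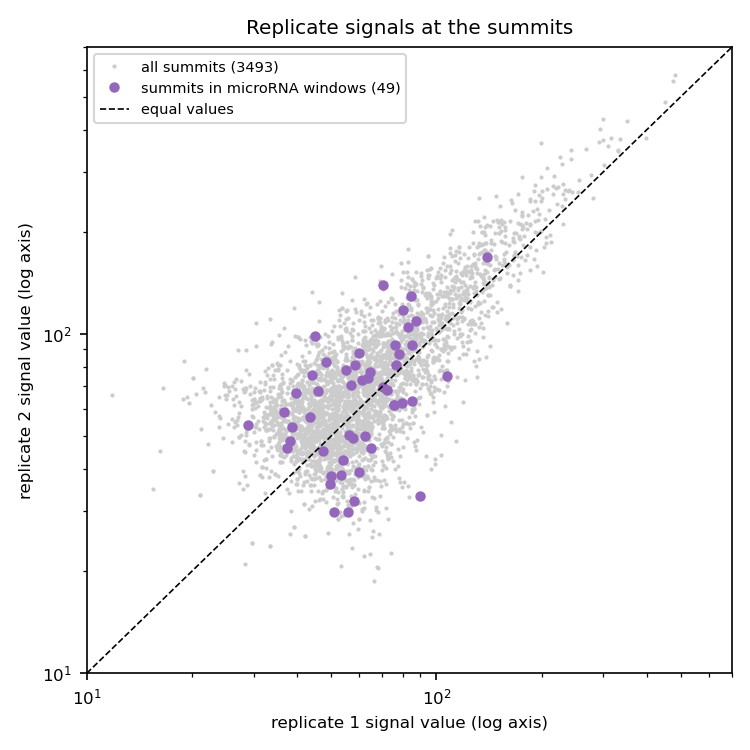
Each point is a summit, with its signal value in replicate 1 (x axis) and in replicate 2 (y axis), both on log axes, and 2 of the 3493 summits of the genome with both values lie outside the axes. The 49 microRNA summits lie within the cloud of all summits, 28 of them above the line of equal values, as do 2351 of the 3493.

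The strongest summit in a microRNA window belonged to mir-77. Its signal value was 313, with 140 in replicate 1 and 168 in replicate 2, and it lay 238 bp upstream of the hairpin (WBGene00003305, chromosome II, 12519268, plus strand). Both replicates were high and both own lists held it. The same summit stood 171 bp upstream of srh-70, a chemoreceptor gene, and 951 bp upstream of ceh-99. It lay 56 bp from a snoRNA gene, T21B4.20, so the peak cannot be given to the microRNA alone. A weaker summit of 107 lay 1040 bp upstream.

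The mir-2221 summit followed at 225, in a wide gap between coding genes. Replicate 1 gave 70.4 and replicate 2 gave 140, so replicate 2 was the higher by a wide margin, though both own lists held it. It lay 1296 bp upstream of the hairpin, and the nearest coding 5′ end stood 2234 bp away.

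One summit of 210 served mir-54, mir-55 and mir-56, hairpins that lie in a row on X and belong to the mir-51 family, which is broadly expressed and needed in the embryo. It stood 198 bp upstream of mir-54, 368 bp upstream of mir-55 and 505 bp upstream of mir-56, in an intron of F09A5.3, a gene on the other strand. It also lay 21 bp from an annotated noncoding RNA (ncRNA) gene, F09A5.11. Replicate 1 gave 80.1 and replicate 2 gave 118, and only replicate 2's own list held the peak. A separate summit of 121 stood 264 bp upstream of F09A5.15, a microRNA gene annotated on the strand opposite mir-55 (59.9 and 39.2 in replicates 1 and 2, in neither own list).

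The mir-57 gene had 2 summits. In the embryo mir-57 is known from posterior cells and is linked to nob-1, the posterior Hox gene beside php-3. The nearer summit, 194 bp upstream of the hairpin (WBGene00003285, chromosome II, 7850597, minus strand), had 204, with 87.4 in replicate 1 and 109 in replicate 2. The farther one, 1126 bp upstream, had 114, with 39.7 and 66.9. Replicate 2 was the higher at both, both own lists held the nearer and only replicate 2's the farther. Each also fell in the window of acr-7, an acetylcholine receptor subunit gene, at 994 and 1926 bp from its 5′ end, so the hairpin's end was closer than that of acr-7 at both. The nearer summit also lay inside 2 annotated ncRNA genes, T09A5.17 and T09A5.19.

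The mir-51 gene itself had a summit of 183 only 69 bp upstream, with 107 in replicate 1 and 75.1 in replicate 2. It was the exception among the 12 genes with the strongest summits, 11 of which were higher in replicate 2. These 12 genes stood on 10 distinct summits. A second summit of 107, in neither own list, stood 1694 bp upstream of mir-51 and 115 bp upstream of its neighbour mir-53 (56.1 and 50.5). The nearest coding 5′ ends were 3247 bp from the first and 1622 bp from the second.

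Near the intestinal microRNA mir-60 a summit of 171 stood 72 bp upstream, with 84.9 and 92.8 in the replicates. For mir-83, which shares its seed with the vertebrate miR-29 family, a summit of 164 stood 260 bp upstream, with 76.4 and 92.7. Both replicates gave close values at each, both own lists held both, and the nearest coding 5′ ends were 2470 and 2845 bp away. An ncRNA gene lay 77 bp from the mir-60 summit and another 133 bp from the mir-83 summit.

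The remaining genes among the 12 strongest shared their summits with coding genes. At mir-2216 the summit of 200 (84.7 and 130) lay 1759 bp upstream and stood 211 bp from the start of gmps-1, a GMP synthase gene, and 265 bp from that of cap-2, which encodes an actin capping protein. At mir-354 the summit of 173 (83.0 and 105) lay 848 bp upstream and 236 bp from rps-20, a ribosomal protein gene, in whose span the hairpin lies. The nearest coding 5′ end was that of ekl-4, at 161 bp, and Y105E8A.14 stood at 1125 bp. At mir-8186.2 the summit of 161 (78.2 and 87.2) lay 279 bp upstream and 562 bp from gmeb-1. The first and the last were in both own lists, and the mir-354 summit only in replicate 2's. Over the 12 genes, 8 had their strongest summit in both own lists and 4 in replicate 2's only. Of these 4, mir-54, mir-55 and mir-56 shared the same summit.

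**Figure D3:**
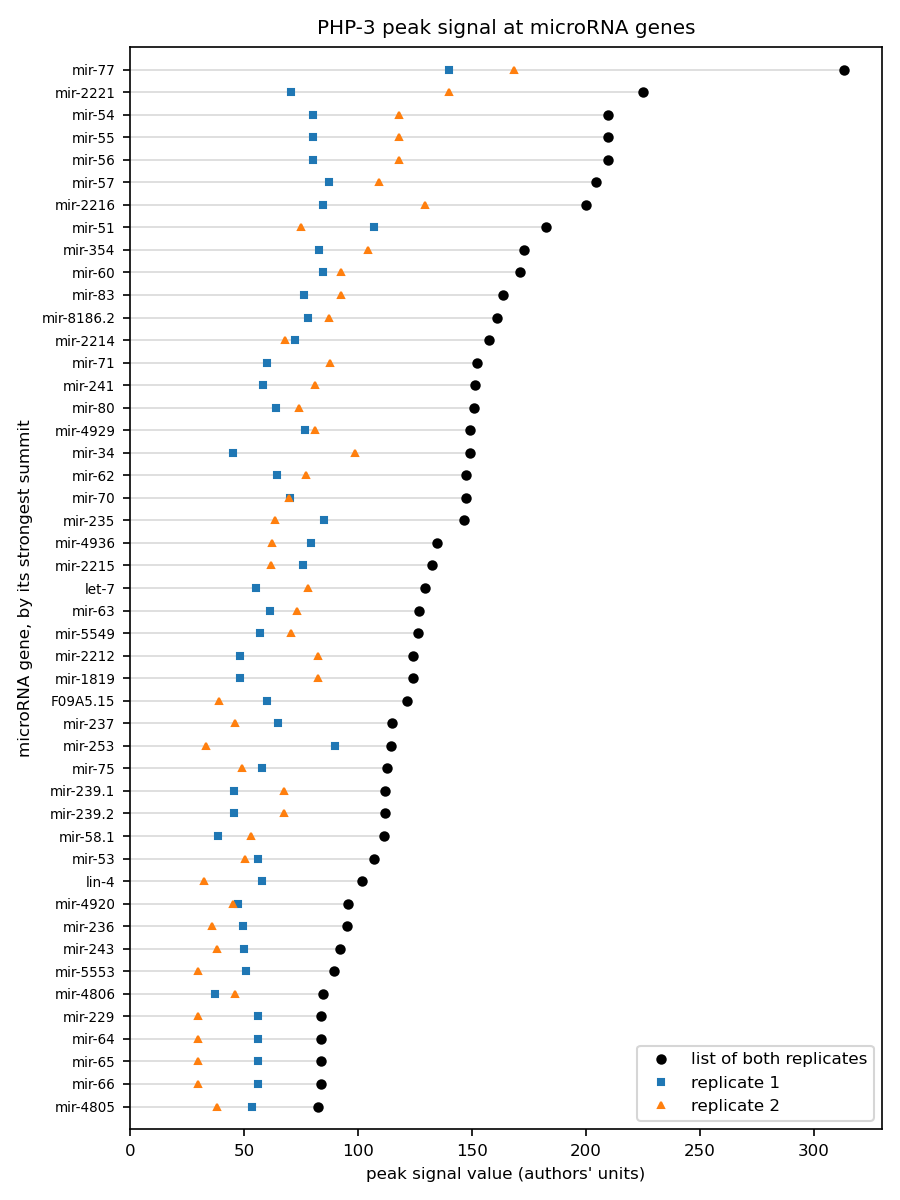
For each of the 47 microRNA genes with a summit, the signal value of its strongest summit is plotted in the list made from both replicates and in each replicate, in the authors' units on a linear axis. The values of the list made from both replicates run from 313 at mir-77 down to 82.7 at mir-4805, and the 2 replicates change places among the genes.

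The other 35 genes had strongest summits between 82.7 and 157. Replicate 1 ranged from 37.5 to 89.8 over these and replicate 2 from 29.8 to 98.7, and replicate 2 was the higher at 15 of 35. Their strongest summit was in both own lists for 10 genes, in replicate 1's only for 8, in replicate 2's only for 8 and in neither for 9. Some of these genes shared a summit, among them mir-229, mir-64, mir-65 and mir-66 in replicate 1's list only. At these genes neither replicate was the higher at nearly every summit.

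Among the timing genes, mir-241, let-7, lin-4 and mir-237 had a summit in the window. The mir-241 gene belongs to the let-7 family and acts with mir-48 and mir-84 in early larval divisions. Its summit of 151 lay 476 bp upstream, with 58.5 in replicate 1 and 81.2 in replicate 2, and no coding gene shared it. The summit lay 3 bp from an ncRNA gene, F56A12.8, and was in replicate 2's own list only. The same summit stood 2250 bp upstream of mir-48, outside the window.

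For let-7, which drives the change from larva to adult, the annotation gives a long transcript rather than a hairpin, 1732 bp from end to end. Its window held a summit of 130 (55.1 and 78.3, replicate 2's own list only) at 1874 bp upstream, 108 bp from the start of wshc-2. A second summit, of 156, lay 599 bp inside the annotated transcript and so outside the window. That one was 467 bp upstream of the mature RNA, with 74.8 in replicate 1 and 84.8 in replicate 2, and both own lists held it. The summit nearer the mature RNA was the stronger in each replicate.

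The lin-4 gene, which ends the first larval program, had a summit of 102 at 1321 bp upstream, with 58.08 in replicate 1 and 32.3 in replicate 2. It lay in an intron of F59G1.4, was in replicate 1's own list only, and was absent from the conservative list. Its relative mir-237 had one of 115 at 1350 bp, with 65.0 and 46.2, also in replicate 1's list only. Replicate 1 was the higher at both. The mir-237 summit stood 78 bp from a tRNA gene.

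The genes of the mir-64 family split over 2 places. The neighbours mir-229, mir-64, mir-65 and mir-66 lie in an intron of gcn-1 and shared 1 summit of 83.9, at 434, 830, 984 and 1090 bp upstream in that order. It had 56.0 in replicate 1 and 29.8 in replicate 2, was in replicate 1's list only and was absent from the conservative list. The fifth, mir-63 on X, had a stronger summit of 127 (61.4 and 73.4, both own lists), 1528 bp upstream and 91 bp from the start of lec-9, a galectin gene.

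Among genes known for stress, starvation or life span, mir-71 had a summit of 152 at 1540 bp upstream in an intron of ppfr-1 (59.9 and 87.7, both own lists). For mir-34 the stronger summit, of 149, lay 1889 bp upstream, with 45.0 in replicate 1 and 98.7 in replicate 2, the widest gap in that direction. It was in replicate 2's list only, and a weaker one of 86.6 at 1164 bp was in neither. For mir-235, which acts in L1 arrest, 2 summits of 146 and 101 stood 1855 and 1034 bp upstream, and both were within 300 bp of tRNA genes. For the pair mir-239.1 and mir-239.2, which point away from each other, summits of 112 and 105 lay between the hairpins and were in replicate 2's own list only. A further one of 86.3 fell in the window of mir-239.1, the only gene with 3 summits.

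In the mir-58 family, related to bantam of the fly, mir-80 had a summit of 151 at 270 bp upstream (63.9 and 74.3, both own lists), with the nearest coding 5′ end 11491 bp away. The mir-58.1 gene lies in an intron of phkb-1 and had 2, of 111 and 72.9, both in neither own list. The 6 other listed genes of the family that were found by symbol had none, the nearest summit standing 8783 bp away. In the mir-75 family mir-75 had 1 of 113, 1591 bp upstream, in replicate 1's own list only.

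At several hairpins inside coding genes, or just behind their starts, the summit stood at the start of the coding gene. It lay 63 bp from the 5′ end of ugt-50 at mir-62 (147, both own lists), which is spliced out as an intron of that gene. It lay 153 bp from that of pmp-5 at mir-70 (147, both own lists, with a second summit of 102). At mir-253 (114) it lay 33 bp inside F44E7.5, and at mir-4920 (95.5) 215 bp from sph-1. At mir-5549 (126) it served rfc-4, eef-1A.1 and F31E3.2 as well. The summits of mir-2214 (157, with spot-1), mir-4929 (149, with pqn-27), mir-4936 (135, with nduf-9), mir-243 (92.2, with R08C7.1) and mir-4805 (82.7, with btb-10) fell in coding windows too.

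The genes not yet named had summits that no coding gene shared. They were mir-1819 and mir-2212 (124, 1 summit for both), mir-236 (95.2), mir-5553 (89.7), mir-4806 (84.6) and mir-2215. The mir-2215 gene had a summit of 132 and beside it one of 6.45, the lowest of all 49, whose replicate values of 75.8 and 61.8 come from the same overlapping peaks as those of its neighbour.

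In all, 20 of the 49 summits also fell in a coding window and 29 did not. Of all 3559 summits, 1875 fell in a coding window. The shared summits had a median signal of 132, and 10 of 20 were in both own lists. The others had a median of 113, with 9 of 29 in both, the mir-2215 summit of 6.45 among them. On X lay 41.4% of these others, 15.0% of the shared summits and 23.6% of all summits. Over genes, 30 had a summit that no coding gene shared, 17 had only shared ones, and 36 had a summit nearer to their own 5′ end than to any coding 5′ end. With coding genes alone considered, 11 of the 49 lay in introns, 3 in exons and 35 outside, a split not counted over all summits. Some of the 35 lay inside noncoding genes, such as an ncRNA gene at mir-51, a tRNA gene at mir-235 and a snoRNA gene at the mir-239 pair. Shared summits were somewhat higher, with wide overlap.

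Measured from the hairpin, the nearest summit in the window stood at a median of 434 bp, and for coding genes with a summit at 417 bp. It was within 300 bp for 19 of 47 genes (40.4%, against 42.3% of coding genes with a summit), within 500 bp for 25 (53.2%, against 54.2%) and within 1000 bp for 30 (63.8%, against 72.6%). The annotated end of a hairpin is not the start of its primary transcript, which can lie far upstream, so these distances do not measure a promoter. Where the hairpin lies in a coding gene, the 2 may share a start.

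**Figure D4:**
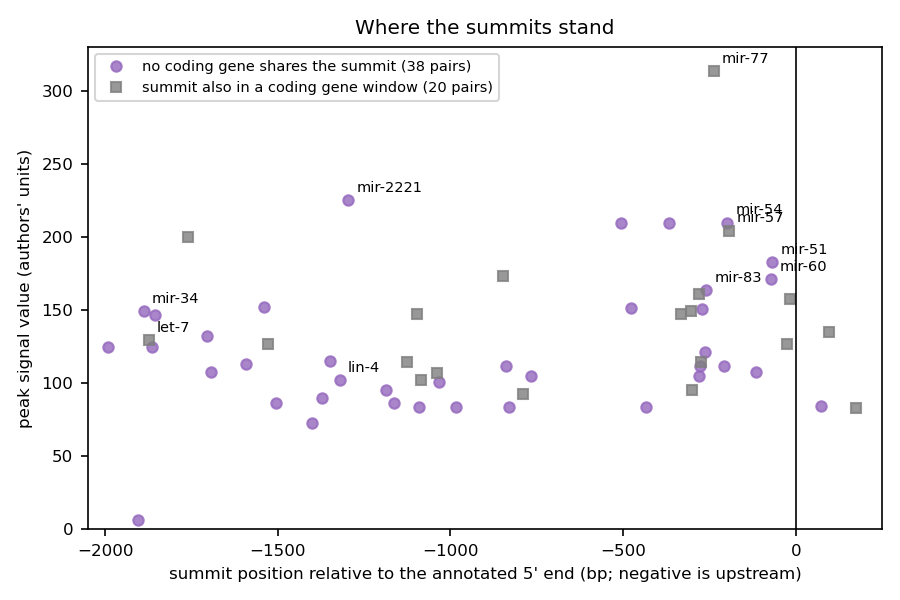
Each point is a gene with a summit, 58 pairs in all, placed by the distance of the summit from the annotated 5′ end in bp (x axis, upstream to the left) and by its signal value in the authors' units (y axis). Circles are the 38 pairs whose summit no coding gene shares and squares the 20 that a coding window also holds; the values above 200 stand both near the hairpin and beyond 1000 bp.

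The rule's border split some families. Just inside it stood mir-1819, at 1992 bp. Just outside on the upstream side stood mir-48 at 2250 bp, mir-84 at 2326 bp (164), mir-230 at 2481 bp (200) and mir-35 at 2636 bp (175), the first hairpin of the embryonic mir-35 cluster. On the downstream side, 14 of the 214 genes without a summit in the window had their nearest one between 200 and 2000 bp behind their 5′ end. The closest of these 14 were mir-74 at 228 bp (94.0), mir-784 at 256 bp (389, stronger than any summit in a microRNA window) and mir-52 at 310 bp (90.0). The conservative list placed a summit in the window of mir-52, mir-238 and mir-8196.1, which had none in the main list.

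By family, from lists chosen with earlier results of these data known, all annotated genes of the lin-4 family (2) and the mir-64 family (5) had a summit in the main list. In the conservative list lin-4, mir-229, mir-64, mir-65 and mir-66 had none, so neither family was complete there. That list held a summit for mir-52 and mir-238, so the order of the families depends on the list. The mir-51 family had 5 of 6, the mir-238 family 2 of 3, the mir-75 family 1 of 2, the let-7 family 2 of 7 and the mir-58 family 2 of 8. Neighbours on the same summit were counted separately, as with mir-54, mir-55 and mir-56, and with mir-229, mir-64, mir-65 and mir-66. These counts cover listed genes found by symbol. The genes named cel-mir-4816 and cel-mir-58c in Ensembl carry other symbols, were not counted in the mir-75 and mir-58 families, and had no summit. None was found for the 8 genes of the mir-35 family, the 5 of the mir-72 family, the 4 each of the mir-44 and mir-2 families and the 2 of the mir-232 family. Of 18 single genes listed for their known roles, mir-34, mir-57, mir-60, mir-70, mir-71, mir-77, mir-83 and mir-235 had one. Over all listed families and single genes, 27 of 74 had a summit (36.5%). Among the other microRNA genes 20 of 187 did (10.7%), and among all microRNA genes 18.0%. Because the lists were chosen with earlier results known, this difference says nothing about families as such. Several genes of well-known tissues had no summit in the window. The nearest one stood at 8515 bp for mir-1 of muscle, 19344 bp for mir-786 of the gut and 20374 bp for mir-228 of glia. It stood at 41713 bp for mir-124 of sensory neurons and 46717 bp for lsy-6 of the left ASE neuron. Over all 214 microRNA genes without a summit the median distance was 14900 bp, and 124 lay beyond 10000 bp. Such distances were thus common, and that of mir-1 was below the median.

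**Figure D5:**
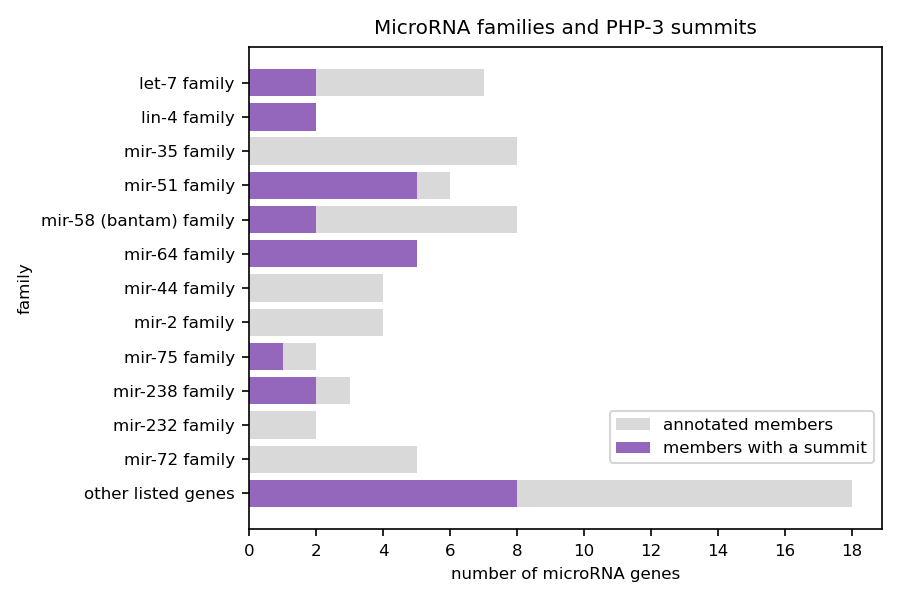
Grey bars give the number of annotated microRNA genes found by symbol in each listed family. Purple bars, drawn over them, give the number with a PHP-3 summit in the window. The lin-4 and mir-64 families are filled completely, the mir-51 family to 5 of 6, and the mir-35, mir-44, mir-2, mir-232 and mir-72 families are empty. Counts are of the main list, and genes on the same summit are counted separately. In the conservative list lin-4, mir-229, mir-64, mir-65 and mir-66 had no summit, and mir-52 and mir-238 had one.

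Base composition was counted in the same windows. The G and C content of the 49 windows ran from 26.7% to 67.3% with a median of 45.5%, and over all summits the median was 41.6%. Summits near tRNA genes are common in these lists, so the windows were also searched, after their sequences had been seen, for the letters GGTTCGA on either strand, the core of the B box, an inner promoter element of tRNA genes. They stood in 5 of 49 microRNA windows (10.2%), in 3.60% of all summit windows and in 35.6% of those within 300 bp of a tRNA gene. Apart from a mir-235 window, the matches were at mir-51, mir-8186.2, mir-4936 and mir-4806, which had no annotated tRNA gene within that distance. Whether these are tRNA genes or remnants that the annotation lacks was not tested. Of the 3320 summits without one, 1.30% had a match. Of these windows 3 are shown, with the matched letters in capitals.
mir-51 (chrIV:11026131-11026231, plus strand): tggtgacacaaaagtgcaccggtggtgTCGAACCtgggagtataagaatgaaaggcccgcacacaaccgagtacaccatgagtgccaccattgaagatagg
mir-4936 (chrIII:3249198-3249298, plus strand): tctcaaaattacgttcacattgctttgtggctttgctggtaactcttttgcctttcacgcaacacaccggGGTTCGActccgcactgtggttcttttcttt
mir-4806 (chrII:12346257-12346357, plus strand): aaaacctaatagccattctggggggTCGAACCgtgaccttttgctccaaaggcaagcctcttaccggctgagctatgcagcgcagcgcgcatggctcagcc
The mir-4936 and mir-4806 summits lay 97 and 74 bp downstream of the hairpin's 5′ end, inside the annotated hairpins of 110 and 83 bp.

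Genes that make or use microRNAs were counted by the same window, from lists chosen with earlier results of these data known. Of 20 listed maturation and silencing genes, 19 were found in the annotation. Of these 19, 7 had a summit (36.8%, against 10.9% of coding genes), and the difference was not tested. The highest was that of nhl-2, a cofactor of the silencing complex, at 363 (157 and 202, both own lists). The Argonaute gene alg-1 had 177 (66.9 and 99.4) and ain-1, a GW182 protein gene, 186 (86.7 and 90.3), each with a second, weaker summit. The gene lin-28, which blocks let-7 maturation, had 146 (74.5 and 76.7), cgh-1 144, lin-66 137 and xrn-2 104. The genes drsh-1, pash-1, dcr-1 and alg-2 had none. None of 8 listed genes of the timing pathway and of let-7 regulation had a summit in the window, and 10.9% of coding genes had one. The 8 included lin-14, a target of lin-4, and lin-41, a target of let-7. The genes lin-28 and lin-66, which had a summit, were listed with the maturation genes. The count for the timing genes thus depends on how the lists were split.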

How the data were processed

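PHP-3::EGFP ChIP-seq peak lists of 2 biological replicates, 1 group, were used on assembly ce11, per the file headers of the listing deposited with the samples. Neither aligner nor peak caller was given in the sources used here. Each deposited peak has a score that grows as its irreproducible discovery rate, a measure of disagreement between paired lists, falls; 830 was the lowest score in the main list. The signal value is the authors' deposited peak height; what it is relative to is not stated. Main results used the larger series-wide thresholded list (3559 peaks), and the conservative list held 3495. The replicates' own thresholded lists held 1728 and 2000. Read depth is unknown, so intervals (exact Clopper-Pearson) cover the counting of genes or summits only. The named control experiment and the signal tracks were not analysed here.

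Genes came from Ensembl release 115 and sequence from RefSeq WBcel235; no peak ended beyond its chromosome, and all 261 microRNA genes matched a RefSeq symbol. A replicate's signal at a summit is the highest among overlapping peaks (1 bp) of its ranked list. Own-list status also used 1 bp of overlap. Summits within 300 bp of a tRNA gene were marked. Every microRNA gene with a summit was named, and the 12 strongest were given in full. The members, lists and motifs were chosen with earlier results of these data known, and the B box after the sequences were seen. Of the mir-64 family, 1 mature sequence is not reported here. A longer spelling of the B box, tried first, matched the same windows except that of mir-8186.2. No test was made between groups. The assignment of summits to windows was tested on simulated data. Tables were computed with pandas 2.3.3 and numpy 2.4.6 in Python 3.11.15, intervals with scipy 1.17.1, and plots with matplotlib 3.10.9.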

Additional observations from a re-analysis of the deposited data

How the results depend on the processing

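The number of microRNA genes with a summit was 47; it was 30 with 1000 bp upstream, 25 with 500 bp, 29 among peaks above the median signal, and 26 to 30 in a single replicate's own list. The 49 distinct summits became 26, 24 and 26 under those settings and 24 to 29 in a single replicate. The 16 genes on X became 6 and 5 with the shorter windows and 5 to 12 in a single replicate; the value of 5 came from replicate 1's list. The 30 genes with a summit that no coding gene shared became 16 among stronger peaks and 15 to 17 in a single replicate. The 18 genes in both own lists became 11 with either shorter window. Shorter windows and single lists hold fewer summits by construction. The conservative list gave 40 genes, 46 summits, 16 on X, 25 unshared and 18 in both lists; 50% overlap left 18, and leaving out summits near tRNA genes left 45 genes. Depth is unknown. Of the genes, 13 stood on 6 summits shared among them, so genes are not independent.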
